A study of Mus musculus with 6 samples.

Results

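C1q macrophages of mouse dorsal skin were described here across untreated skin, skin treated with imiquimod (IMQ) and skin treated with IMQ and the inhibitor SHP099. The cells were chosen by their own transcripts. A barcode was a member when the 3 C1q chain genes C1qa, C1qb and C1qc summed to at least 5 UMIs per 10000 (cp10k) and when Pf4, Mrc1, Folr2 and Ms4a7 summed to at least 2 UMIs. It also had to hold fewer than 2 UMIs of Chil3, under 20 cp10k of the basal keratins Krt5 and Krt14, and under 10 cp10k of the collagen genes Col1a2 and Col3a1. Each UMI (unique molecular identifier) stands for 1 captured transcript. Of the 50850 barcodes kept in the series, 483 were members (0.95%). By library there were 36 and 309 members (Sham), 46 and 48 (IMQ), and 23 and 21 (IMQ+SHP099), with replicate 1 before replicate 2 here and below.

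C1q is the recognition subunit of the classical complement pathway, and in tissues it is made largely by macrophages. Resident macrophages of the dermis take up debris and dying cells, hold iron, and release chemokines that draw other leukocytes. They also carry scavenger and lectin receptors such as CD206 (Mrc1) and CD163, and a share of them displays peptides on MHC class II molecules to T cells. IMQ cream acts through Toll-like receptor 7 and brings monocytes and neutrophils into the skin, where monocytes can become macrophages.

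The libraries were made from the dorsal skin of female C57BL/6J mice aged 8 to 10 weeks, with pooled animals in each library and 2 libraries per group. Sham mice were untreated (titled Normal in the labels), IMQ mice received 62.5 mg of 5% IMQ cream each day for 4 days, and IMQ+SHP099 mice had the same cream and SHP099 by gavage at 10 mg/kg daily for 4 days, which the labels call additional. SHP099 is an allosteric inhibitor of the phosphatase SHP2, which Ptpn11 encodes, and skin was taken 1 day after the final IMQ treatment. The cream was given to wild-type mice and no gene was altered, and fewer mice were pooled in a Sham library than in the others. No cell-by-cell source of animals was used here, so each library counts as 1 sample (n = 2 per group), and the p-values measure the spread between libraries, which may in part be technical.

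The kept barcodes numbered 7382 to 10293 per library, and the deposited totals ran from 53913865 to 188283327 UMIs. Sham replicate 2 stood apart from the other libraries, since it held 64.0% of the members and only 1267 keratin-rich barcodes (Krt5+Krt14 at least 20 cp10k) against 4835 in Sham replicate 1. No member barcode was found in more than 1 library. The members of a library gave 123413 and 1438661 UMIs in Sham, 425478 and 367449 UMIs in IMQ, then 115774 and 122202 UMIs in IMQ+SHP099, and their median depth was 2929 to 8118.5 UMIs per cell, highest in the IMQ libraries. A single UMI was thus worth 9.59 CPM (counts per 1e+06 of the members' UMIs, on library sizes scaled by TMM) in Sham replicate 1 and 0.705 CPM in Sham replicate 2. Values from Sham replicate 1 and the IMQ+SHP099 libraries are therefore the coarsest, and results are given with and without Sham replicate 2 below.

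The members were checked against macrophage genes that the choice had not used. Adgre1 (F4/80), a surface marker of mouse macrophages, was at 767 and 525 CPM (Sham), 1011 and 1028 CPM (IMQ), and 1123 and 1032 CPM (IMQ+SHP099). Lyz2 (lysozyme) was detected in 95% to 100% of members thinned to 2000 UMIs (unthinned 97.2% to 100%), against 0.183% to 1.98% of keratin-rich barcodes thinned alike. It is shared with monocyte-like cells, which held 24.1 to 163 cp10k against 43.0 to 73.4 cp10k in the members. The transcription factor gene Maf, active in mature macrophages, was present too, at 316 to 1228 CPM across the libraries. Csf1r, the receptor for the growth factor M-CSF, was at 1.78 to 5.66 cp10k in the members and at 1.41 to 7.31 cp10k in Langerhans-like cells, which were higher in 5 of 6 libraries. Cd68, a lysosomal marker of phagocytes, was at 1.55 to 4.62 cp10k in the members and at 2.21 to 3.27 cp10k in monocyte-like cells, so that neither gene set the members apart. Ly6c2, a marker of inflammatory monocytes, was at 0 to 0.306 cp10k in the members and at 1.51 to 20.2 cp10k in monocyte-like cells. Those cells were gated from the other barcodes on Ly6c2, Plac8, Chil3, Ccr2 and Lyz2, so the gate set their Ly6c2 and Lyz2 in part. Other monocyte genes were present in the members. The monocyte list summed to 2339 and 2823 CPM (Sham), 1841 and 2605 CPM (IMQ), and 723 and 558 CPM (IMQ+SHP099). Ccr2 was found in 8.33% and 28.1% of Sham members thinned to 2000 UMIs, and in 5.0% to 19.5% of treated members. Of the genes the rule used, which are given as a description, C1qa ran from 42.1 to 60.2 cp10k in the members and reached 0.281 cp10k in monocyte-like and 6.42 cp10k in Langerhans-like cells.

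Markers that set apart subsets of resident macrophages were weaker. Lyve1, a hyaluronan receptor of perivascular macrophages, gave 0 and 105 UMIs (Sham), 2 and 7 UMIs (IMQ), and 0 UMIs in each IMQ+SHP099 library. Timd4, a receptor for dying cells, gave 47 UMIs, all in Sham replicate 2, and Vsig4, a complement receptor of resident macrophages, gave 10 there and 3 in IMQ replicate 2. Folr2, a folate receptor used by the rule, stood at 4.46 and 9.12 cp10k (Sham), 1.01 and 2.48 cp10k (IMQ), and 1.21 and 0.409 cp10k (IMQ+SHP099). The name C1q macrophages is therefore used for all libraries, and residence in the treated skin was not tested.

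Few members lay near the C1q limit of the rule. The median C1q sum was 92.7 to 164 cp10k by library, 18 members lay between 5 and 10 cp10k, and 23 barcodes met all other criteria with 2 to 5 cp10k. Exactly 2 UMIs of the Pf4 group were held by 29 members, and 43 barcodes were left out for holding 1. The Chil3 limit kept out 16 and 4 barcodes in the IMQ libraries and 3 in IMQ+SHP099 replicate 2, and the collagen limit kept out 49 in Sham replicate 2. No doublet caller was run. UMIs of another lineage were found in 16 members, and a UMI of a dendritic-cell marker in 109 of the 309 members of Sham replicate 2, against 0 to 6 members in each other library.

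**Figure D1:**
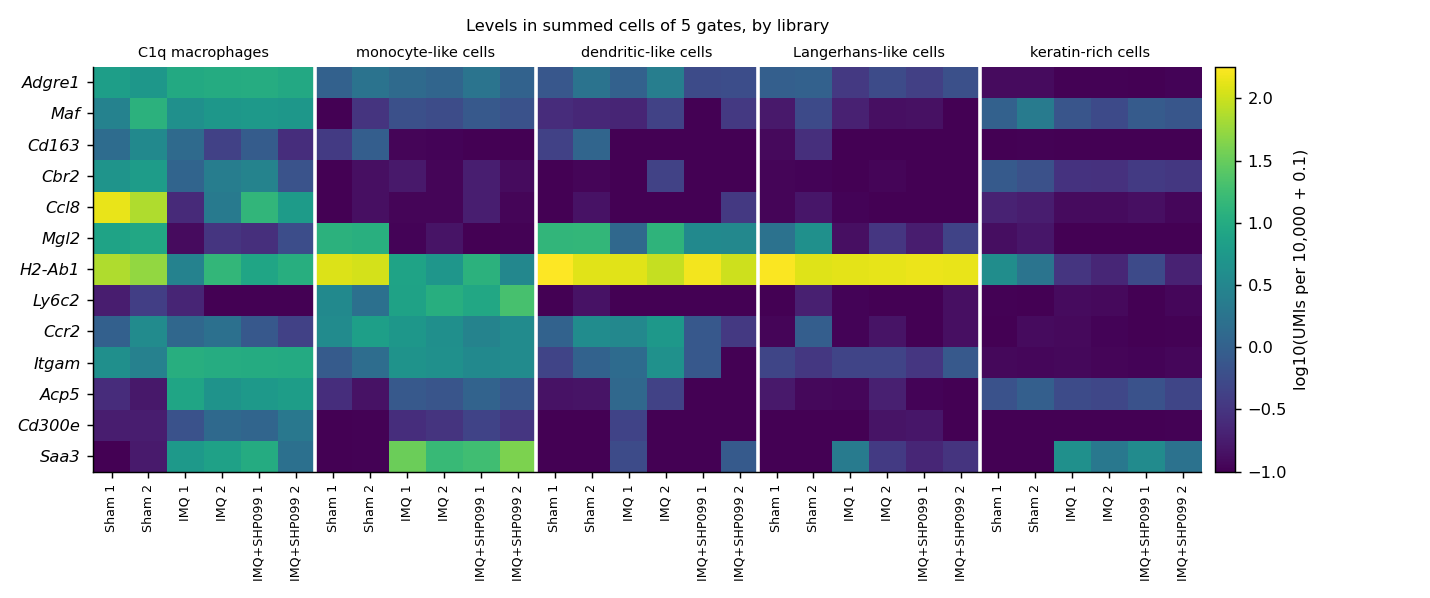
Heat map of 13 genes (rows) in 5 gated populations (blocks), each with its 6 libraries (columns). Colour is log10 of cp10k plus 0.1 in the summed cells. Adgre1 ran from 5.17 to 10.2 cp10k in C1q macrophages and was at most 2.36 cp10k in the other blocks, while Ccl8 was near 0 outside the C1q block.

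To ask whether the treatments moved the abundance of these cells, their share of all kept barcodes was taken per library, with exact Clopper-Pearson 95% intervals that cover counting error only. The share was 0.419% (0.294 to 0.580) and 3.75% (3.35 to 4.19) for Sham, 0.600% (0.439 to 0.799) and 0.466% (0.344 to 0.618) for IMQ, and 0.265% and 0.284% for IMQ+SHP099. The Sham libraries lay on either side of the IMQ libraries. The difference of means was -1.55 percentage points for IMQ against Sham (exact two-sided permutation test, p = 1.0), and it was 0.114 points without Sham replicate 2. Over barcodes low in Krt5 and Krt14 the groups did not overlap, with 0.960% and 4.44% in Sham against 0.728% and 0.509% in IMQ. That difference was -2.08 points (exact permutation p = 0.333, which 2 libraries against 2 cannot go below). Over barcodes with a UMI of the leukocyte gene Ptprc it was -5.27 points with overlap. As a share of all kept barcodes, both IMQ+SHP099 libraries were under both IMQ libraries. The means differed by -0.258 points (p = 0.333 by the same exact permutation, again the lowest possible). Over barcodes low in Krt5 and Krt14 the difference of IMQ+SHP099 from IMQ was -0.0856 points with overlapping libraries (exact permutation p = 1.0). Over barcodes with a Ptprc UMI it was -0.116 points, again with overlap (exact permutation p = 1.0). Keratin-rich barcodes, which enter the first denominator, numbered 1356 and 859 for IMQ, then 5674 and 445 for IMQ+SHP099, and their part in these shares was not tested.

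**Figure D2:**
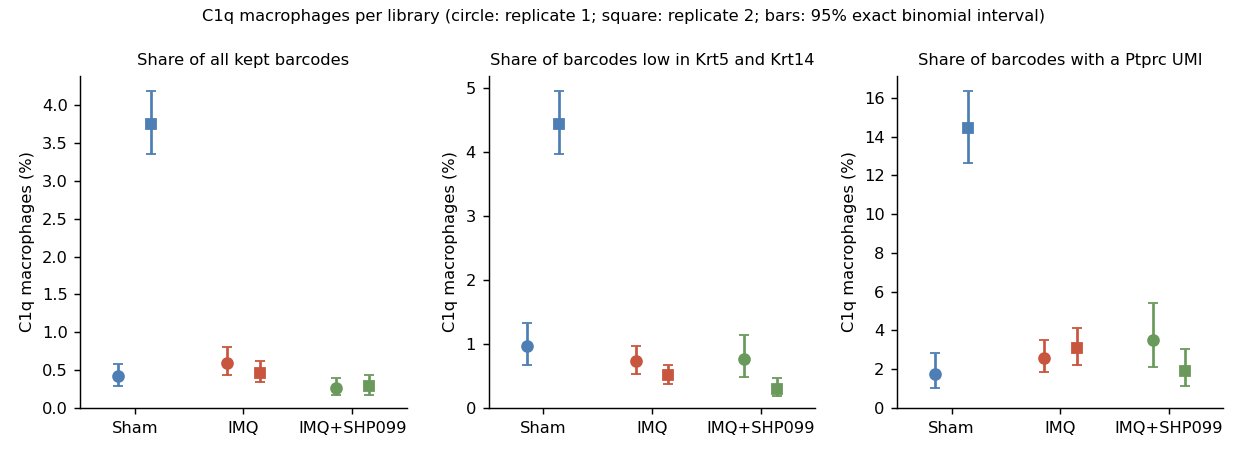
C1q macrophages as a percentage of all kept barcodes, of barcodes low in Krt5 and Krt14, and of barcodes with a Ptprc UMI (panels). Each point is a library and each bar its exact 95% binomial interval. Sham replicate 2, at 3.75% of all barcodes, stood above the other 5 libraries, which ran from 0.265% to 0.600%.

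The comparison of IMQ with Sham asked what the cream changed within the C1q macrophages. The lectin gene Mgl2 and the chemokine gene Ccl8 fell and the phosphatase gene Acp5 rose, each in every setting tried. UMIs were summed per library over the members, and 3953 genes were tested with edgeR's quasi-likelihood test (Benjamini-Hochberg adjustment over all of them, which applies to every adjusted p below). Of these, 24 genes passed an adjusted p of 0.05 (0.607%), 9 higher and 15 lower in IMQ. In such sums, fewer cells of a type and less RNA per cell cannot be told apart.

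Mgl2 (CD301b; chromosome 11, 70130329 to 70137550, plus strand, GRCm38) encodes a galactose-binding lectin of dermal macrophages and dendritic cells. It was at 892 and 901 CPM (Sham), 2.55 and 22.7 CPM (IMQ), and 19 and 55.8 CPM (IMQ+SHP099). All 4 treated libraries lay far below both Sham libraries, which were nearly equal (log2 fold change -6.16, SE 0.65, adjusted p = 0.000858). Mgl2 was detected in 23 of 36 and 240 of 309 members in Sham, and in 1, 3, 2 and 3 members in the treated libraries. With members thinned to 2000 UMIs, 66.7% of members held a UMI in each Sham library (95% intervals 44.7 to 84.4 and 60.4 to 72.5), and at most 15.0% did in any treated library. In every thinned share, members with fewer UMIs are left out. These were 12 of 36 and 60 of 309 members in Sham, and 1 to 5 in each treated library. In monocyte-like cells Mgl2 was at 12.1 and 11.1 cp10k in Sham and at most 0.0471 cp10k in the treated libraries. In Sham 6 of 15 and 158 of 241 of these cells also met the dendritic-like gate. That gate is based on Cd209a, Mgl2 and Clec10a with class II genes. The same held for 3 of 488 and 2 of 594 in IMQ, and for 1 of 22 and 0 of 310 in IMQ+SHP099. The part of this overlap in the fall was not tested. Dendritic-like cells of IMQ replicate 2 held 12.8 cp10k, but they numbered 4 and were gated in part on Mgl2 itself.

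Ccl8 (chromosome 11, 82115185 to 82116799, plus strand), a chemokine that acts on monocytes and T cells, was at 16759 and 7421 CPM (Sham), 15.3 and 210.2 CPM (IMQ), and 1513 and 688 CPM (IMQ+SHP099). The IMQ libraries were lowest, the IMQ+SHP099 libraries lay between, and Sham was highest with no overlap among the 3 groups (log2 fold change -6.75, SE 0.98, adjusted p = 0.00838 for IMQ against Sham). The transcript was found in 22 of 36 and 224 of 309 Sham members and in 4 of 46 and 7 of 48 IMQ members. Outside the C1q macrophages, no gate exceeded 0.247 cp10k of Ccl8 in any library, against 73.1 and 142 cp10k in the Sham members.

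Acp5 (chromosome 9, 22126727 to 22135711, minus strand) encodes tartrate-resistant acid phosphatase, an enzyme of osteoclasts and of some tissue macrophages. It stood at 19.2 and 6.35 CPM (Sham), 868 and 474 CPM (IMQ), and 619 and 734 CPM (IMQ+SHP099). Every treated library was at least 474 CPM, and neither Sham library passed 19.2 CPM (log2 fold change 6.35, SE 0.62, adjusted p = 0.000858). It was seen in 2 and 7 Sham members, in 35 and 28 IMQ members and in 14 members of each IMQ+SHP099 library. The level in treated C1q macrophages was 4.54 to 8.01 cp10k, while the 4 other gates of the same libraries ran from 0 to 1.15 cp10k. Keratin-rich barcodes held 0.375 to 0.862 cp10k in all 6 libraries, Sham included. Mgl2, Ccl8 and Acp5 passed under all 18 other settings tried, the highest adjusted p being 0.0171, 0.0394 and 0.0394, and they were the only genes of the 24 that passed without Sham replicate 2.

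Other genes that fell had varied known roles. Cd209d, a DC-SIGN relative, was at 201 and 738 CPM (Sham), 0 and 17 CPM (IMQ), and 66.6 and 9.29 CPM (IMQ+SHP099) (log2 fold change -5.88, SE 0.92, adjusted p = 0.0121). Fxyd2, a regulatory subunit of the sodium pump, was at 288 and 289 CPM (Sham), 7.64 and 11.4 CPM (IMQ), and 57.1 and 18.6 CPM (IMQ+SHP099), with the Sham libraries nearly equal (log2 fold change -4.89, SE 0.50, adjusted p = 0.000858). It passed 17 of 18 other settings and had an adjusted p of 0.0524 without Sham replicate 2. Igfbp4, which binds insulin-like growth factors, was at 259 and 409 CPM (Sham), 56 and 48.3 CPM (IMQ), and 47.6 and 37.2 CPM (IMQ+SHP099) (log2 fold change -2.72, SE 0.39, adjusted p = 0.00838). Both Sham libraries exceeded all 4 treated libraries for each of these genes. Pmp22, a membrane protein gene, also passed, with 422 and 407 CPM (Sham), 61.1 and 88.1 CPM (IMQ), and 28.6 and 27.9 CPM (IMQ+SHP099).

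The semaphorin gene Sema4a was at 76.7 and 209 CPM in Sham against 12.7 and 25.6 CPM in IMQ (log2 fold change -3.07, SE 0.54, adjusted p = 0.0242). Ccl5, a chemokine for T cells and monocytes, was at 201 and 101 CPM in Sham against 12.7 and 25.6 CPM in IMQ (log2 fold change -2.82, SE 0.55, adjusted p = 0.0418). It was found in 5 of 36 and 22 of 309 Sham members, with 33.3% and 26.6% of the UMIs in 1 cell. Ccl5 did not pass with DESeq2 or when members with UMIs of another lineage were left out. The class I-like gene H2-Q6 was at 95.9 and 93.8 CPM in Sham against 15.3 and 14.2 CPM in IMQ (log2 fold change -2.65, SE 0.51, adjusted p = 0.041). H2-Q6 belongs to a family of near-identical copies, so its counts are uncertain. All of these were lower in both IMQ libraries than in either Sham library. Mmp12, the macrophage elastase gene, gave 7 and 197 UMIs in Sham, in 2 and 20 members, against none in either IMQ library. It was thus at least 33.3-fold lower in IMQ against a floor of 3 UMIs over the group (edgeR adjusted p = 0.0418). Mmp12 did not pass with DESeq2, at C1q of at least 10 cp10k, or without members holding other-lineage or dendritic marker UMIs. A single cell gave 71.4% of its UMIs in Sham replicate 1 and 28.4% in Sham replicate 2. The keratin genes Krt77 and Krt10 also passed, but a single cell gave 85.5% and 86.9% of their UMIs in Sham replicate 2. The whole keratinocyte list summed to 815 and 1798 CPM (Sham), 275 and 145 CPM (IMQ), and 685 and 83.6 CPM (IMQ+SHP099), with 1 of its 4 tested genes passing, and its part in the other results was not tested.

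Genes that rose with IMQ included receptors, an adaptor and an acute-phase protein. Saa3 (chromosome 7, 46711998 to 46715700, minus strand), an acute-phase serum amyloid, was at 0 and 7.05 CPM (Sham), 588 and 761 CPM (IMQ), and 1114 and 167 CPM (IMQ+SHP099) (log2 fold change 6.69, SE 0.93, adjusted p = 0.00725). All treated libraries were higher than both Sham libraries, although 24.2% to 44.4% of the UMIs of a treated library came from a single cell. Cd300e, an activating receptor of monocytes, was at 9.59 and 8.46 CPM (Sham), 61.1 and 125 CPM (IMQ), and 114 and 214 CPM (IMQ+SHP099) (log2 fold change 3.38, SE 0.58, adjusted p = 0.0242). Sh2d1b1, an adaptor of SLAM receptors, was at 28.8 and 7.05 CPM (Sham), 102 and 76.7 CPM (IMQ), and 152 and 92.9 CPM (IMQ+SHP099) (log2 fold change 3.18, SE 0.60, adjusted p = 0.0346). Each was higher in all 4 treated libraries than in both Sham libraries, and none of these 3 genes passed without Sham replicate 2.

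Fcrl5, an Fc receptor-like protein best known from B cells, gave 0 and 1 UMI in Sham and 11, 20, 10 and 19 UMIs in the treated libraries. The ratio of summed levels was 63.4 for IMQ over Sham, with a counting interval of 10.6 to 2582 (edgeR adjusted p = 0.0167). Treated members held 0.259 to 1.55 cp10k of it, and no other gate held more than 0.0514 cp10k. Fcrl5 has close relatives, so its counts are uncertain. Lipg, a lipase, also rose (9.59 and 3.53 CPM in Sham against 63.6 and 102 CPM in IMQ; log2 fold change 4.24, SE 0.75, adjusted p = 0.0242), with 52% and 50% of the UMIs of the IMQ libraries in 1 cell each. The neutrophil genes S100a8 and S100a9 rose as well, from 0 and 1 UMI in Sham to 36 and 45 UMIs of S100a8 in IMQ. Keratin-rich barcodes held 128 to 244 cp10k of S100a8 in the treated libraries and the C1q macrophages 0.573 to 2.68, so that free RNA and transcription in the members were not told apart. The neutrophil list summed to 38.3 and 64.2 CPM (Sham), 295 and 361 CPM (IMQ), and 714 and 149 CPM (IMQ+SHP099). For Saa3 the level in treated members was 3.34% to 41.0% of that over all kept barcodes of the same library. For Acp5 it was at least 1110% of that level. Among genes that fell, Igfbp4 in the Sham members was at 300% and 137% of it, and H2-Q6 at 80.9% and 122%. In the treated members Igfbp4 was at 6.95% to 97.7% and H2-Q6 at 0% to 42.9%. Ccl8, Cd209d, Fxyd2, Sema4a, Ccl5, Mmp12 and Rsad2 were at 202% or more in both Sham libraries. In the IMQ members Ccl5 was at 12.1% and 17.3% of that level, Sema4a at 60.6% and 151%, and Ccl8 at 64.5% and 385%. Cd209d was there at 0% and 6674%, Fxyd2 at 451% and 485%, and Rsad2 at 514% and 575%, while Mmp12 had no UMIs. The part of free RNA in these falls was not tested.

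**Figure D3:**
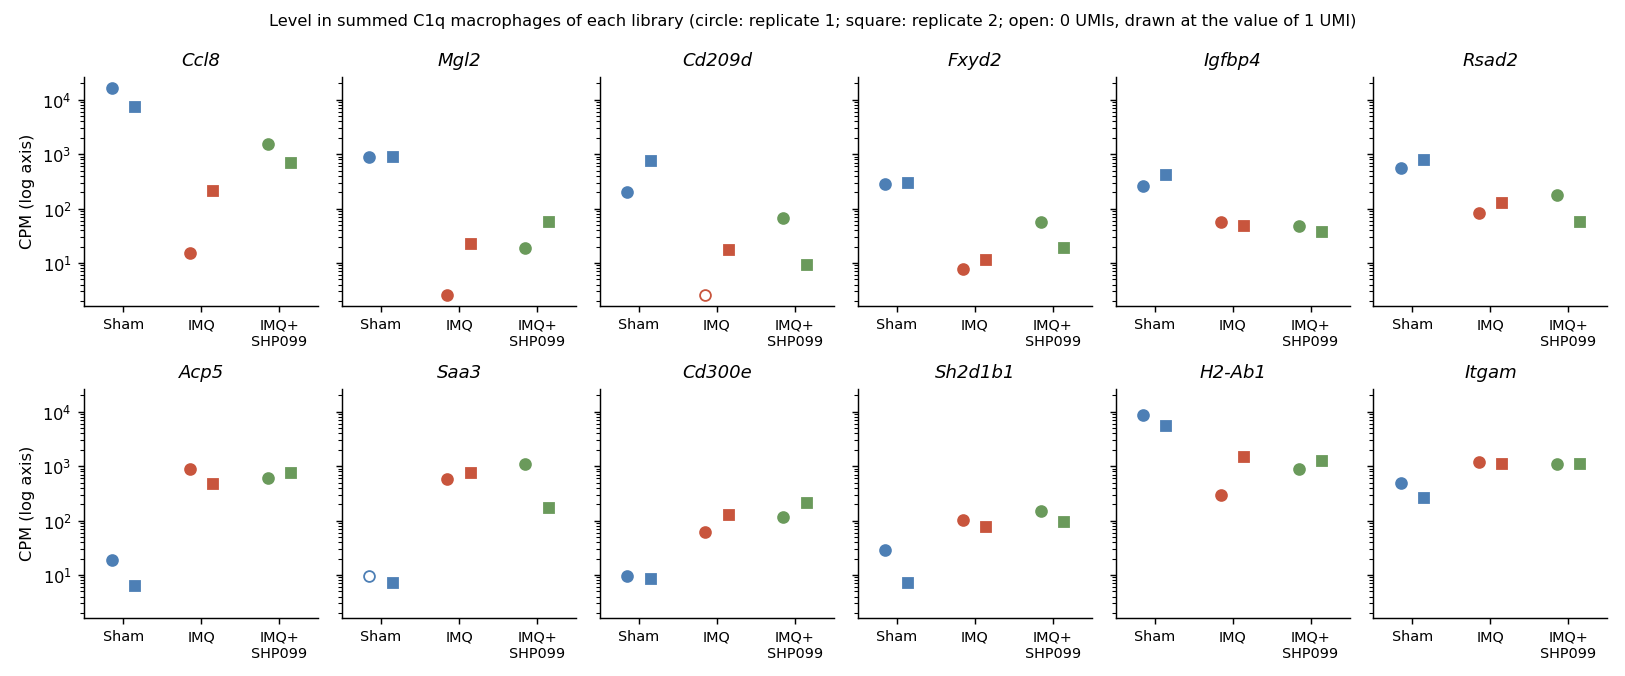
CPM (log axis) of 12 genes in the summed C1q macrophages of each library, by group. Open symbols are libraries with 0 UMIs, drawn at the value of 1 UMI. Both Sham libraries lie above all treated libraries for Ccl8, Mgl2, Cd209d, Fxyd2, Igfbp4, Rsad2 and H2-Ab1, and below them for Acp5, Saa3, Cd300e, Sh2d1b1 and Itgam.

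MHC class II genes were lower in IMQ as a group, although no single gene passed the test. All 8 tested members of the presentation list were lower in IMQ, with a median log2 fold change of -2.18 against -0.02 over all genes, and 6 had an unadjusted p under 0.05, where 6.1% of all genes were lower at that limit. H2-Ab1, a chain of the I-A molecule, was at 8715 and 5401 CPM (Sham), 290.2 and 1474 CPM (IMQ), and 895 and 1227 CPM (IMQ+SHP099) (log2 fold change -3.0, SE 0.64, adjusted p = 0.0674). H2-Aa, its partner chain, was at 7478 and 5718 CPM (Sham), 255 and 1392 CPM (IMQ), and 771 and 669 CPM (IMQ+SHP099) (log2 fold change -3.0, SE 0.64, adjusted p = 0.0672). Cd74, the invariant chain that guards the peptide groove, was at 20229 and 10858 CPM (Sham), 949.6 and 3795 CPM (IMQ), and 2732 and 3187 CPM (IMQ+SHP099) (log2 fold change -2.71, SE 0.59, adjusted p = 0.0766). For these 3 genes every treated library was below both Sham libraries, and IMQ replicate 1 was well under IMQ replicate 2. H2-DMb1, part of the peptide loader, was at 527 and 455 CPM (Sham), 145 and 168 CPM (IMQ), and 238 and 223 CPM (IMQ+SHP099) and was more even between replicates (adjusted p = 0.0749).

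The call for this group depended on the setting. H2-Aa and H2-Ab1 passed with DESeq2 and with the replicate number as a block, Cd74 also passed with DESeq2, and H2-Aa, H2-Ab1, H2-Eb1 and Cd74 passed without IMQ replicate 2 and with no filter on low counts. Without Sham replicate 2 the 7 genes tested were again all lower, with a median of -3.05. Cell by cell, detection of H2-Ab1 was also higher in both Sham libraries than in every treated library. With members thinned to 2000 UMIs, H2-Ab1 was found in 100% and 82.3% of Sham members, 19.5% and 45.5% of IMQ members, and 50% and 45.0% of IMQ+SHP099 members (unthinned 94.4%, 85.1%, 32.6%, 56.2%, 56.5% and 47.6%). In keratin-rich barcodes thinned alike it was found in 1.40% to 8.39%. The median per-cell sum of H2-Aa, H2-Ab1, H2-Eb1 and Cd74 was 202 and 194 cp10k (Sham), 2.20 and 2.83 cp10k (IMQ), and 9.38 and 4.96 cp10k (IMQ+SHP099). In the treated libraries, of 21 to 48 members each, the top 5 members gave 60.1% to 83.7% of the UMIs of these 4 genes, and in Sham replicate 1, of 36 members, they gave 52.9%. Dendritic-cell markers summed to 997 and 1350 CPM in the Sham members and 137 to 344 CPM in the treated ones. When members with a dendritic marker UMI were left out, all 7 class II genes tested were still lower, with a median of -2.71.

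Stretches of promoter are shown for the class II genes with a CCAAT box, the element bound by NF-Y in promoters of this family. The letters searched were CCAAT on both strands (ATTGG on the other) from 250 bases before to 50 bases after the start in RefSeq's GRCm38.p6 annotation. Of the 8 tested genes 4 had a promoter entry, and 3 of these held the letters, against 12289 of 32851 promoters of the same length (37.4%). Each stretch lies upstream of the gene, is written 5′ to 3′ on the gene's strand, and has the box in capitals. They are H2-Aa at chr17:34287827-34287911 (minus strand, box starting 48 bases before the start), H2-Eb1 at chr17:34305768-34305852 (plus strand, 59 bases) and H2-DMb1 at chr17:34153090-34153174 (plus strand, 61 bases). A match of letters is a description of the sequence and says nothing of what bound there.
H2-Aa: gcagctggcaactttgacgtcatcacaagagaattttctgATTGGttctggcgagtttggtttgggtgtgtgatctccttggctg
H2-Eb1: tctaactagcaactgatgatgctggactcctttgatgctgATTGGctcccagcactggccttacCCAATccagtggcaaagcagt
H2-DMb1: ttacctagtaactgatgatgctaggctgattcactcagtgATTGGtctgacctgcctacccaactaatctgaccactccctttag

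**Figure D4:**
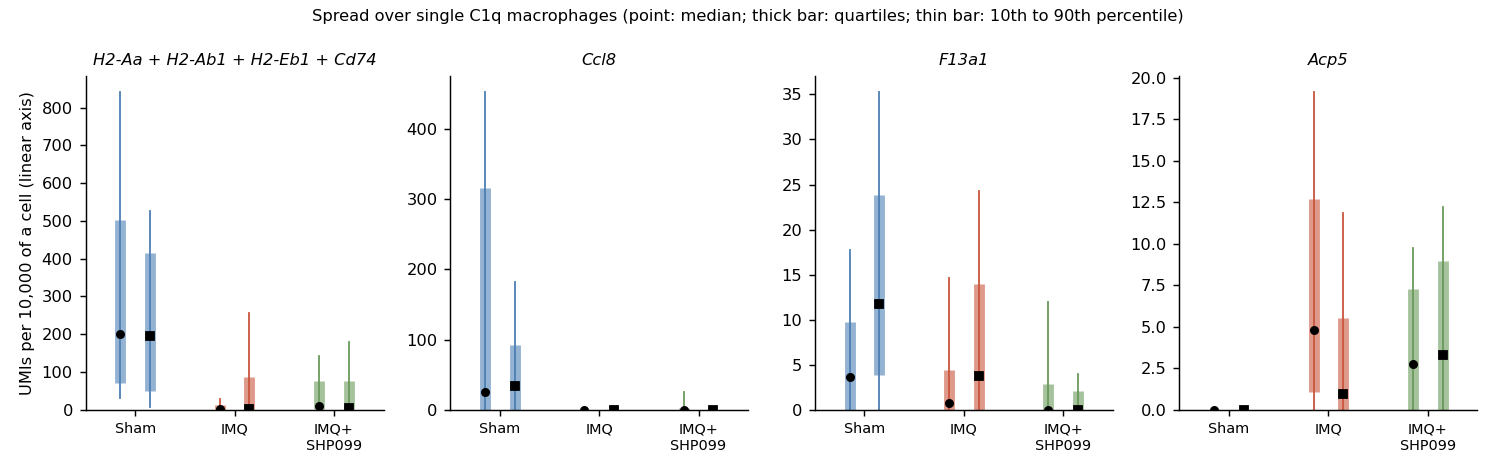
Levels of the class II sum, Ccl8, F13a1 and Acp5 (panels) in single C1q macrophages by library, in cp10k on linear axes. Points are medians, thick bars the quartiles and thin bars the 10th to 90th percentiles. The class II sum had medians near 200 cp10k in Sham and under 10 in all treated libraries, while the Acp5 bars were at 0 in Sham.

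Of the 27 interferon-stimulated genes in the files 20 were tested, and all 20 had a negative log2 fold change, with a median of -1.32, and 12 had an unadjusted p under 0.05 (6.1% of all genes were lower at that limit). Rsad2, the antiviral protein viperin, was at 566 and 774 CPM (Sham), 84 and 128 CPM (IMQ), and 181 and 55.8 CPM (IMQ+SHP099) and was the member that passed (log2 fold change -2.68, SE 0.48, adjusted p = 0.0243). Ifi27l2a was at 2943 and 1895 CPM (Sham), 552 and 912 CPM (IMQ), and 1266 and 1199 CPM (IMQ+SHP099) (adjusted p = 0.107). Ifit1, a sensor of viral RNA ends, was at 173 and 366 CPM (Sham), 35.6 and 111 CPM (IMQ), and 66.6 and 102 CPM (IMQ+SHP099) (adjusted p = 0.149). Irf7, which drives type I interferon genes, was at 307 and 111 CPM (Sham), 35.6 and 54 CPM (IMQ), and 152 and 65 CPM (IMQ+SHP099) (adjusted p = 0.175). Gbp2, a guanylate-binding protein, was at 57.5 and 176 CPM (Sham), 7.64 and 31.2 CPM (IMQ), and 66.6 and 9.29 CPM (IMQ+SHP099) (adjusted p = 0.109). Both Sham libraries were above both IMQ libraries for all of these. Without Sham replicate 2, all 13 genes tested were lower, with a median of -1.28, and none passed, Rsad2 included. With no filter and with DESeq2, 26 of 27 were lower and 1 higher, and 21 were lower and 2 higher without Sham replicate 1.

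The interferon element was read in the same promoters for the genes that carried the pattern. Its paired core was searched on both strands as GAAA, any 2 bases, then GAAA again, which reads TTTC on the other strand. Of 20 tested genes 15 had a promoter entry and 9 of these held it, namely Bst2, Gbp2, Gbp3, Ifit1, Ifit3, Ifitm3, Isg15, Rsad2 and Stat2, against 1131 of 32851 promoters (3.44%). Rsad2 is shown at chr12:26456523-26456612 (minus strand, element 120 bases before the start), Ifit1 at chr19:34640764-34640853 (plus strand, 85 bases) and Gbp2 at chr3:142620564-142620653 (plus strand, 59 bases), with the element in capitals.
Rsad2: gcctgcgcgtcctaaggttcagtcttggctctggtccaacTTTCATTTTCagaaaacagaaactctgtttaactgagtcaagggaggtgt
Ifit1: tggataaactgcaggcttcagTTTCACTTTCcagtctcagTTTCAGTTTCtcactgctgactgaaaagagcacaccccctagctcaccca
Gbp2: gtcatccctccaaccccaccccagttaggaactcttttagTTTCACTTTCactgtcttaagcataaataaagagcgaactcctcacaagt

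Genes known from resident dermal macrophages were mostly lower in IMQ, less so without Sham replicate 2. Of 18 tested genes 17 were lower, Ccl8 and Cd209d passed, and the median log2 fold change was -1.61. Without Sham replicate 2 the split was 11 lower and 8 higher, with a median of -0.52 and Ccl8 alone passing. F13a1, a transglutaminase of resident macrophages, was at 633 and 1544 CPM (Sham), 504 and 809.6 CPM (IMQ), and 352 and 112 CPM (IMQ+SHP099), so that Sham replicate 1 lay within the IMQ values (adjusted p = 0.675). Retnla, an effector of alternative activation, was at 47.9 and 5169 CPM (Sham), 0 and 1594 CPM (IMQ), and 0 and 112 CPM (IMQ+SHP099), with 0 to 5 UMIs in replicate 1 of each group. Cbr2, a carbonyl reductase, was at 566 and 621 CPM (Sham), 109 and 239 CPM (IMQ), and 305 and 65 CPM (IMQ+SHP099) (adjusted p = 0.229). Gas6, a bridge between dying cells and their receptors, was at 288 and 763 CPM (Sham), 63.6 and 199 CPM (IMQ), and 133 and 74.3 CPM (IMQ+SHP099) (adjusted p = 0.176). Igf1 was at 307 and 466 CPM (Sham), 78.9 and 151 CPM (IMQ), and 257 and 130.1 CPM (IMQ+SHP099) (adjusted p = 0.124). Cbr2, Gas6 and Igf1 were higher in both Sham libraries than in both IMQ libraries. Apoe, a lipid carrier, was at 7833 and 7770.1 CPM (Sham), 5156 and 11010.4 CPM (IMQ), and 9042 and 9637 CPM (IMQ+SHP099) and showed no such order.

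Of the chemokine list, 14 genes were tested, of which 8 were lower and 6 higher in IMQ, and Ccl8 and Ccl5 passed. Ccl7, a monocyte chemokine, was at 1965 and 1105 CPM (Sham), 458 and 534 CPM (IMQ), and 685 and 1022 CPM (IMQ+SHP099) (adjusted p = 0.147), and Ccl12 was at 469.8 and 281 CPM (Sham), 81.5 and 102 CPM (IMQ), and 152 and 558 CPM (IMQ+SHP099) (adjusted p = 0.175). Cxcl9 gave 5 and 97 UMIs in the Sham members and 0 in all treated libraries, and the filter on low counts left it out. It was tested and passed as lower in IMQ with the 2 groups alone, with no filter, without Sham replicate 1 and without either IMQ+SHP099 replicate. Ccl2, another monocyte chemokine, was at 709 and 662 CPM (Sham), 967 and 724 CPM (IMQ), and 714 and 1282 CPM (IMQ+SHP099), with both Sham libraries just under both IMQ libraries (adjusted p = 0.842). Cxcl2, a neutrophil chemokine, was at 489 and 1628 CPM (Sham), 2243 and 1420.3 CPM (IMQ), and 628 and 1543 CPM (IMQ+SHP099), with overlapping groups. Of 11 tested genes of alternative activation 10 were lower in IMQ (median -1.43), with Mgl2 and Mmp12 passing. Without Sham replicate 2 the split was 5 lower to 3 higher (median -0.89). With the replicate block it was 8 lower to 3 higher (median -0.86). Arg1, the classic enzyme of alternative activation, gave 1 UMI in all members together.

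The lists of identity and complement genes had medians close to that of all genes. Of 16 macrophage identity genes 11 were higher and none passed (median 0.18), and Cx3cr1, the fractalkine receptor, was at 9.59 and 48.7 CPM (Sham), 186 and 102 CPM (IMQ), and 143 and 269 CPM (IMQ+SHP099) (adjusted p = 0.186). Of 11 complement genes 6 were higher and none passed (median 0.11). Itgam (CD11b), a chain of complement receptor 3, was at 489 and 263 CPM (Sham), 1176 and 1085 CPM (IMQ), and 1085 and 1097 CPM (IMQ+SHP099) (adjusted p = 0.125), and its partner Itgb2 was at 144 and 102 CPM (Sham), 300.4 and 369 CPM (IMQ), and 314 and 279 CPM (IMQ+SHP099) (adjusted p = 0.124). For both chains all treated libraries were higher than both Sham libraries. Itgam was found in 50% and 41.8% of Sham members thinned to 2000 UMIs and in 70.0% to 84.1% of treated members (unthinned 55.6%, 59.2% and 82.6% to 93.8%).

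Cytokine genes were mostly too low for a test in these cells. Of the 26 cytokine and mediator genes 9 were tested, of which 3 were higher and 6 lower, and Saa3 passed. Il1b was at 76.7 and 236 CPM (Sham), 252 and 111 CPM (IMQ), and 390.2 and 18.6 CPM (IMQ+SHP099) and Tnf at 47.9 and 348 CPM (Sham), 267 and 136 CPM (IMQ), and 85.7 and 269 CPM (IMQ+SHP099), both with overlapping groups. Il23a, which drives the IL-17 axis in psoriasis models, gave 6 UMIs in all members. None of the 20 tested genes of the TLR7 and NF-kB list passed (6 higher, 14 lower, median -0.47), and none of the 17 of the SHP2 and ERK list did (8 higher, 9 lower, median -0.09). Tlr7, the receptor of IMQ, gave 2, 63, 14, 13, 3 and 1 UMIs, and Ptpn11 gave 4, 66, 10, 6, 3 and 1, so neither could be tested at this depth. Ptpn6, the related phosphatase SHP1, was at 163 and 145 CPM (Sham), 367 and 392 CPM (IMQ), and 476 and 483 CPM (IMQ+SHP099) (adjusted p = 0.176), with both Sham libraries below all others.

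The remaining lists had no gene past the threshold, except Mmp12 among growth factor and repair genes (3 higher and 7 lower of 10, median -0.17). Phagocytosis genes split 9 higher to 8 lower of 17 (median 0.13), iron and haem genes 6 to 4 of 10 (median 0.05) and stress genes 8 to 12 of 20 (median -0.10). Lysosome and lipid genes split 9 higher to 20 lower of 29 (median -0.23) and glycolysis genes 10 to 3 of 13 (median 0.37). All 12 proliferation genes were higher in IMQ (median 0.81), 2 of them at an unadjusted p under 0.05, where 4.68% of all genes were higher, and 5 of 8 were higher without Sham replicate 2. Of the 8 tested hub genes that the study had chosen on these samples, 5 were higher and none passed (median 0.23), which is no independent evidence.

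**Figure D5:**
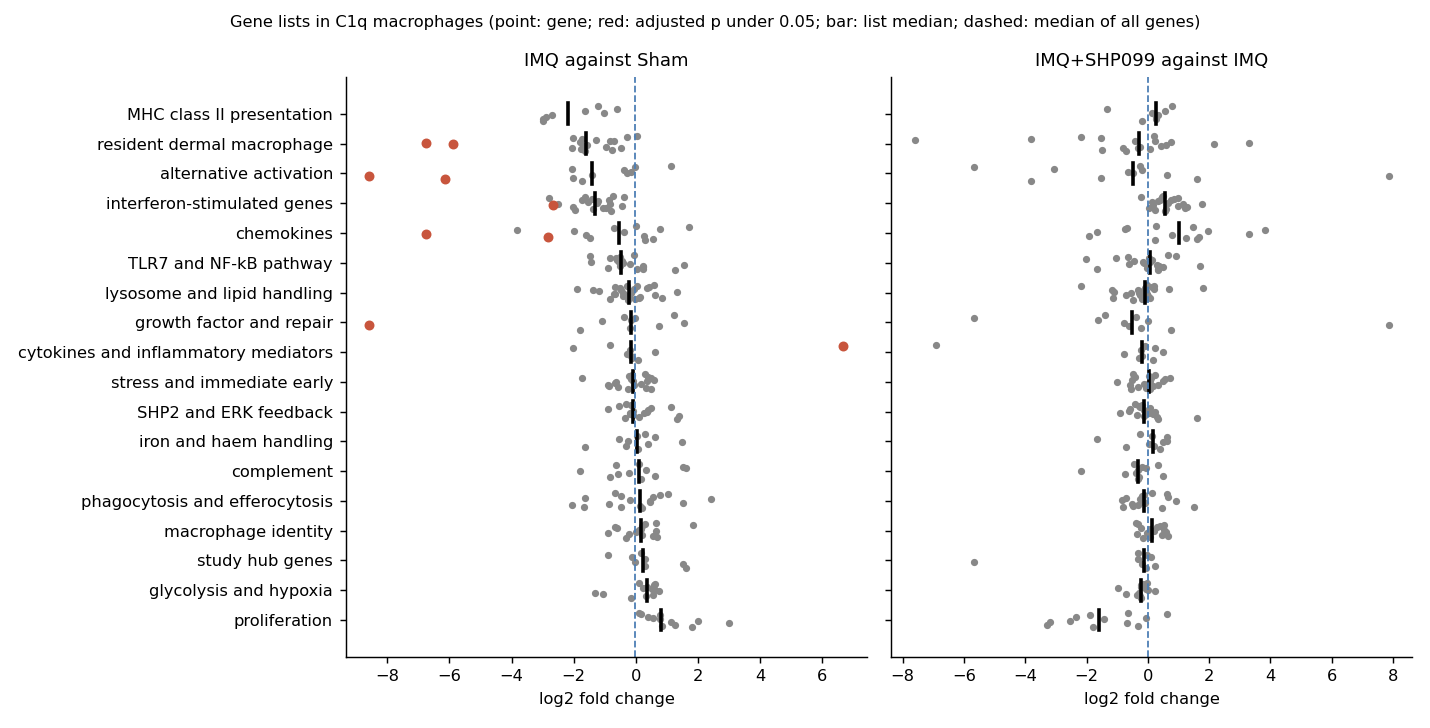
Log2 fold changes of the tested genes of 18 lists for IMQ against Sham (left) and IMQ+SHP099 against IMQ (right). Points are genes, red points passed an adjusted p of 0.05, bars are list medians and the dashed line is the median of all genes. MHC class II had the lowest list median on the left (-2.18), and no gene is red on the right.

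IMQ+SHP099 was compared with IMQ to ask which levels the inhibitor moved in C1q macrophages. No gene of 3953 passed in edgeR (0%), with a smallest adjusted p of 0.9999, 112 genes at an unadjusted p under 0.05, and 0 genes in DESeq2. The genes closest to the limit are given as values that did not pass. Ccl8 was higher in IMQ+SHP099 (15.3 and 210.2 CPM in IMQ against 1513 and 688 CPM in IMQ+SHP099; log2 fold change 3.30, SE 0.86, unadjusted p = 0.00235), but 95.9% of its UMIs in IMQ+SHP099 replicate 2 came from 1 cell and 8 and 4 members held it. Ccl12, a related monocyte chemokine, was at 81.5 and 102 CPM in IMQ against 152 and 558 CPM in IMQ+SHP099 (log2 fold change 1.95, SE 0.55, unadjusted p = 0.00414). Klra2, a lectin receptor of a family with close copies, was at 35.6 and 73.9 CPM in IMQ against 152 and 409 CPM in IMQ+SHP099 (log2 fold change 2.37, SE 0.57, unadjusted p = 0.00125). These 3 genes were higher in both IMQ+SHP099 libraries than in both IMQ libraries. Irak1, a kinase below Toll-like receptors, was at 45.8 and 48.3 CPM in IMQ against 95.2 and 214 CPM in IMQ+SHP099 (log2 fold change 1.71, SE 0.46, unadjusted p = 0.00305), with 78.3% of the UMIs of IMQ+SHP099 replicate 2 in 1 cell. Mmp12 gave 15 UMIs in 1 member of IMQ+SHP099 replicate 2 and 0 UMIs in the other 3 libraries.

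Trem2, a lipid receptor of macrophages, was lowest in IMQ+SHP099 (160.4 and 99.4 CPM in IMQ against 38.1 and 18.6 CPM in IMQ+SHP099; log2 fold change -2.19, SE 0.64, unadjusted p = 0.00482), on 4 and 2 UMIs. Yipf1, Napsa, Acat1 and Cenpa were lower as well, with log2 fold changes of -2.30, -2.81, -2.24 and -2.25. They rested on few counts: Yipf1 had 3 UMIs in IMQ+SHP099 and 53 in IMQ (ratio of levels 5.04, counting interval 1.64 to 25.2), Napsa had 2 and 51 (ratio 7.28, interval 1.92 to 61.7), and Acat1 had 3 and 51 (ratio 4.85, interval 1.57 to 24.3). All 5 genes were below both IMQ libraries in both IMQ+SHP099 libraries.

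By list, 19 of 20 interferon-stimulated genes were higher in IMQ+SHP099 than in IMQ (median 0.58 against 0.00 over all genes), yet none had an unadjusted p under 0.05, where 1.06% of all genes were higher at that limit. Without IMQ+SHP099 replicate 1 the interferon-stimulated genes split 13 higher to 11 lower (median 0.28). Class II genes split 6 higher to 2 lower (median 0.28), and resident macrophage genes 8 to 10 (median -0.29). Chemokine genes split 10 higher to 4 lower (median 1.01), with 4 of them higher at an unadjusted p under 0.05. Their direction depended on the setting. Without IMQ+SHP099 replicate 2 they split 8 higher to 11 lower (median -0.57). With no filter on low counts they split 10 higher to 12 lower (median -0.21). All 6 tested monocyte markers were lower (median -2.31), 4 of them at an unadjusted p under 0.05 (1.77% of all genes were lower at that limit). Fn1 (fibronectin) was at 19.2 and 422 CPM (Sham), 125 and 383 CPM (IMQ), and 0 and 9.29 CPM (IMQ+SHP099), and S100a4 was at 1812 and 873 CPM (Sham), 1163 and 1179 CPM (IMQ), and 371 and 399.6 CPM (IMQ+SHP099). The monocyte list as a whole summed to 2339 and 2823 CPM (Sham), 1841 and 2605 CPM (IMQ), and 723 and 558 CPM (IMQ+SHP099), so that both IMQ+SHP099 libraries were lowest. Of 12 proliferation genes 11 were lower (median -1.60), 2 of them at an unadjusted p under 0.05. The proliferation list summed to 2790 and 1392 CPM in IMQ against 1380 and 1450 CPM in IMQ+SHP099, with overlapping groups. Without IMQ replicate 1 the split was 4 lower to 2 higher (median -0.45). These comparisons rest on 44 members with 115774 and 122202 UMIs.

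IMQ+SHP099 was also set against Sham, which shares its libraries with both comparisons above. Here 20 genes passed (0.506%), 13 higher and 7 lower. Mgl2 (892 and 901 CPM in Sham against 19 and 55.8 CPM in IMQ+SHP099; log2 fold change -4.57, SE 0.65, adjusted p = 0.0078) and Pmp22 (422 and 407 CPM in Sham against 28.6 and 27.9 CPM in IMQ+SHP099; log2 fold change -3.86, SE 0.50, adjusted p = 0.00496) fell. Acp5 (19.2 and 6.35 CPM in Sham against 619 and 734 CPM in IMQ+SHP099; log2 fold change 6.36, SE 0.63, adjusted p = 0.00123) rose. Sdc4, a heparan sulfate proteoglycan, fell too (987 and 470.4 CPM in Sham against 114 and 83.6 CPM in IMQ+SHP099; log2 fold change -2.85, SE 0.49, adjusted p = 0.0259). Csrnp1, an immediate early nuclear protein, was at 163 and 436 CPM in Sham against 28.6 and 46.5 CPM in IMQ+SHP099 (log2 fold change -3.08, SE 0.60, adjusted p = 0.049). Igfbp4 (log2 fold change -3.02, SE 0.48, adjusted p = 0.0161) and Fxyd2 (log2 fold change -2.93, SE 0.50, adjusted p = 0.0259) also fell.

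Fpr1, the formyl peptide receptor, gave 0 and 4 UMIs in Sham and rose to 47.6 and 92.9 CPM (log2 fold change 4.62, SE 0.87, adjusted p = 0.042). Clec4a2, an inhibitory lectin receptor, was at 336 and 330.0 CPM (Sham), 1069 and 741 CPM (IMQ), and 1275 and 1784 CPM (IMQ+SHP099) (log2 fold change 2.20, SE 0.41, adjusted p = 0.0389), and Ntpcr, a nucleoside triphosphatase, was at 47.9 and 46.5 CPM (Sham), 178 and 131 CPM (IMQ), and 295 and 195 CPM (IMQ+SHP099) (log2 fold change 2.38, SE 0.43, adjusted p = 0.0329). Clec4a2 and Klra2 belong to families with close copies, and their counts are uncertain. Klra2 rose here (log2 fold change 3.35, SE 0.64, adjusted p = 0.042), as did Saa3, Cd300e, Sh2d1b1 and Fcrl5 (log2 fold changes 6.61, 4.21, 3.63 and 7.16). Ccl8 (log2 fold change -3.46, SE 0.84, adjusted p = 0.102) and Rsad2 (log2 fold change -2.52, SE 0.52, adjusted p = 0.057) did not pass in this comparison. Without Sham replicate 2, 6 genes passed, among them Acp5, Mgl2, Pmp22 and Sdc4.

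The C1q macrophages of Sham replicate 2, the only library with enough members to look at cell by cell, were not uniform. With 249 members thinned to 2000 UMIs, the sum of H2-Aa, H2-Ab1, H2-Eb1 and Cd74 ran opposite to that of F13a1, Cd163 and Cbr2 (Spearman's rho -0.595). It also ran opposite to Ccl8 (rho -0.49) and to the sum of C1qa, C1qb and C1qc, which the rule used (rho -0.31). It ran together with Ccr2, a monocyte chemokine receptor (rho 0.45), and Mgl2 (rho 0.25). Members in the lowest class II tercile held a mean of 23.7 Ccl8 UMIs and 8.71 UMIs of F13a1, Cd163 and Cbr2, and those in the highest held 5.72 and 2.28. The means for Ccr2 were 0.0964 and 1.17 UMIs, and those for the C1q sum were 25.1 and 15.0 UMIs. A UMI of a dendritic-cell marker was held by 109 of the 309 members of this library. The part of such cells in these relations was not tested. These are descriptions of cells of 1 library, which share its depth and animals, and no test was run on them. Retnla was concentrated in few cells, since 215 of 309 members had none and 5 members gave 47.9% of its UMIs. Its relation to the class II sum was weak (rho -0.17).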

How the data were processed

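Single-cell RNA was measured in 6 libraries of mouse skin. The authors ran CellRanger 3.1.0 against GRCm38 (mm10) and deposited raw UMI counts for each gene and barcode, not normalized. Barcodes under 100000 UMIs, 6500 genes and 10% mitochondrial UMIs were kept, and no doublets were removed. Members were gated and their counts summed per library (Python 3.11.15). Library totals of 115774 to 1438661 UMIs set the precision. edgeR 4.0.16 (R 4.3.3) fitted all 6 libraries with the group as the only term, by the quasi-likelihood test with TMM, filterByExpr and Benjamini-Hochberg adjustment. The study's rank-sum test over cells was not used, since cells of a library are not replicates. The 12 genes of the gate were not tested. Coordinates are from GENCODE vM21.

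Members and gene lists were chosen with earlier results of these data known. A gene was named where it passed, its libraries did not overlap between groups, 1 group averaged 20 CPM or more, it marked no other cell type, and its change ranked within the 10 largest of its direction. Where fewer than 10 passed, the 5 per direction with the smallest p were named as not passing. List members were named with their counts. Of 524 list genes, 4 are not analysed here (Clec7a, Ifi30, Cxcl11 and Mx2). Shares were compared by exact permutation. Alternatives were the replicate block, DESeq2 1.42.0, other scaling, filters and gates, and leaving out each library. The fit was tested on simulated data.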

Additional observations from a re-analysis of the deposited data

How the results depend on the processing

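The numbers of genes past the threshold moved with the gate and the libraries, and the cause was not tested. For IMQ against Sham, 24 genes passed, and 31 with the replicate number as a block, 32 with the 2 groups alone and 24 with DESeq2. With no filter on low counts 189 passed. With gates chosen after seeing the data, 15 passed at C1q of at least 50 cp10k, 14 without members holding a dendritic marker UMI, and 12 with at least 4 UMIs of Pf4, Mrc1 and Folr2. Leaving out 1 library gave 5 to 126 genes: 5 without Sham replicate 2 (3 of them among the 24), 126 without Sham replicate 1, 9 without IMQ replicate 1, 16 without IMQ replicate 2, and 50 and 49 without the IMQ+SHP099 replicates. For IMQ+SHP099 against IMQ, 0 genes passed, also under the block, with DESeq2 and with the 2 groups alone, and 13 passed with no filter and 0 to 1 with 1 library left out (Ccl8 without IMQ replicate 2, Mmp12 without IMQ+SHP099 replicate 1). For IMQ+SHP099 against Sham, 20 passed, and 45 under the block, 5 with the 2 groups alone, 40 with DESeq2, 159 with no filter, 8 without dendritic marker UMIs, 2 with at least 4 UMIs of Pf4, Mrc1 and Folr2, and 6 to 88 with 1 library left out (6 without Sham replicate 2, 10 without IMQ+SHP099 replicate 2). A lone library in such a fit is assumed to vary like the other groups. The difference in share for IMQ against Sham ran from -3.22 to 0.114 percentage points with 1 library left out.

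The replicate numbers were not taken as pairs. Across genes, the differences between replicates 2 and 1 correlated at 0.188 for Sham and IMQ, 0.105 for Sham and IMQ+SHP099 and 0.0507 for IMQ and IMQ+SHP099, and a shared number is all the labels give.

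For IMQ+SHP099 against IMQ, where no gene passed, some log2 fold changes turned sign. With 1 library left out, S100a8 ran from -0.75 (without IMQ+SHP099 replicate 1) to 1.41, S100a9 from -2.0 (without that library) to 1.12, and Krt10 from -0.86 to 1.41 (-0.12 without IMQ replicate 2). H2-Aa ran from -0.97 to 1.5, H2-Ab1 from -0.49 to 1.87, H2-Eb1 from -0.51 to 2.05 and Cd74 from -0.38 to 1.64, in each case lowest without IMQ replicate 1 and highest without IMQ replicate 2. S100a9 was -0.11 and H2-Eb1 -0.26 with at least 4 UMIs of Pf4, Mrc1 and Folr2. At C1q of at least 50 cp10k H2-Ab1 was -0.18 and H2-Eb1 -0.019. H2-Aa was 0.021 with the replicate block, and Itgb2 was 0.061 with the gate in cp10k. Over the named genes, contrasts and alternatives, 1041 values kept their direction and side of the threshold, 169 lost the call, 50 gained one and 14 turned sign.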
